A study of Bos taurus with 6 samples.

Results

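The genes of glucocorticoid activation and response were followed in cultured bovine granulosa cells (GC), the somatic cells that line the ovarian follicle around the oocyte. They were chosen by gene symbol, and all 8 genes on the list, *HSD11B1*, *HSD11B2*, *H6PD*, *NR3C1*, *NR3C2*, *FKBP5*, *TSC22D3* and *PER1*, were measured, each by 1 of the 26773 transcript clusters of the array. A transcript cluster is the array's unit for a gene. RNA came from 6 cultures of primary GC, of which 3 had been plated densely (high density) and 3 at the usual density (normal density), each hybridized to 1 Bovine Gene 1.0 ST array. Both groups were kept for 9 days in serum-free alpha-MEM with FSH, IGF-1 and androstenedione, and no glucocorticoid is named among the medium's ingredients. The cells were pooled from small to medium follicles of many slaughterhouse cows whose cycle stage was not known, and were frozen before culture. The sources do not say which cows went into which culture, so the p-values measure only the spread between these cultures.

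Cortisol acts within a cell only after its local concentration has been set by a pair of enzymes. HSD11B1, in the membrane of the endoplasmic reticulum, mainly reduces inactive cortisone to cortisol, with NADPH that H6PD regenerates in the lumen of the same compartment. HSD11B2 works in the opposite direction and oxidizes cortisol to cortisone. The hormone then binds the glucocorticoid receptor encoded by *NR3C1*, or the mineralocorticoid receptor encoded by *NR3C2*, and the bound receptor switches on genes such as *FKBP5*, *TSC22D3* and *PER1*. In the ovary, GC are known to shift from inactivating to activating cortisol around ovulation, when the follicle passes through an inflammation-like reaction.

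The deposited values are log2 signals made by the authors with the RMA procedure, which corrects background, normalizes between arrays and summarizes the probes of a gene. A difference is given as the mean log2 signal at high density less that at normal density (log2 fold change), with limma's test over all transcript clusters and Benjamini-Hochberg adjustment. A gene is termed called when it differed by more than 1.5-fold with a p-value and an adjusted p below 0.05, the thresholds of the methods. Array medians lay between 4.34 and 4.43, and the 95th percentile of 82 control reporters, 4.62, was taken as the background level. Signals of different genes come from different probes and are not compared in level. Of the GC markers, 12 of 13 lay above the background level in each group, and none of 8 leukocyte markers did in either group.

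Of the 8 genes, *HSD11B1* rose and *NR3C1* fell at high density. The other 6 were not called, among them all of *FKBP5*, *TSC22D3* and *PER1*. Over all transcript clusters 7.49% were called, 3.97% higher and 3.51% lower at high density. Of all transcript clusters 51.2% had both group means at or below the background level, and with only those above it tested, 13.0% were called. *NR3C2* is the 1 gene of the 8 that this leaves out. In 5 of the 8 genes the signals of the densities did not overlap, against 37.3% of all transcript clusters. The median size of the change was 0.35 on the log2 scale for the 8 genes and 0.15 for all transcript clusters.

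**Figure D1:**
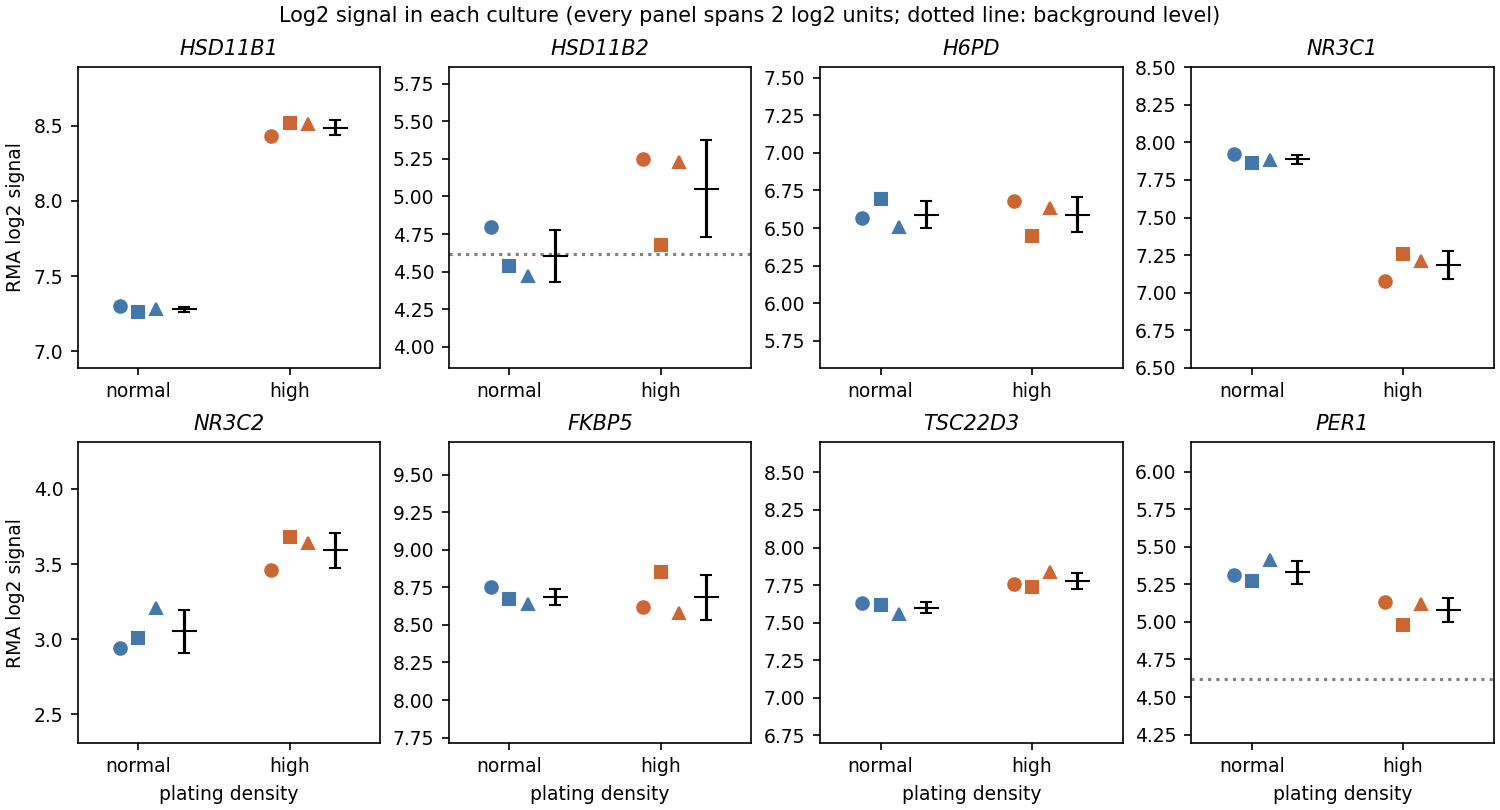
RMA log2 signal (vertical axes, each spanning 2 log2 units) of the 8 genes in the 3 normal density cultures (blue) and 3 high density cultures (orange). Circle, square and triangle are replicates 1, 2 and 3, black bars are means ± SD, and the dotted line is the background level of 4.62. *HSD11B1* and *NR3C1* show groups that lie far apart, while *H6PD* and *FKBP5* overlap.

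Among the enzymes, *HSD11B1* (transcript cluster 12738595) stood out. Its log2 signal was 7.30, 7.26 and 7.28 in normal density replicates 1 to 3 and 8.43, 8.52 and 8.51 in high density replicates 1 to 3. The lowest high density culture was 1.14 above the highest normal density culture, and within a density the cultures differed by at most 0.09. The group means were 7.28 ± 0.02 and 8.49 ± 0.05 (SD, n = 3), a log2 fold change of 1.21 ± 0.07 (SE, adjusted p = 4.52e-05 by limma). This corresponds to a 2.31-fold higher signal, with a 95% interval of 2.08 to 2.57. By p-value *HSD11B1* ranked 115th of all transcript clusters, and by size of rise 279th. Few transcript clusters were as even between cultures, since only 4.56% had a smaller SD at normal density and 11.9% at high density. The call held with each culture left out in turn, with log2 fold changes between 1.19 and 1.24.

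For *HSD11B2* (12749479), the opposing enzyme, the cultures at high density did not behave alike. The log2 signal was 4.80, 4.54 and 4.47 at normal density and 5.25, 4.68 and 5.23 at high density. High density replicate 2 lay below normal density replicate 1, so the groups overlapped. The means were 4.60 ± 0.17 and 5.05 ± 0.32 (SD, n = 3), a log2 fold change of 0.45 (95% interval 0.06 to 0.84, limma's adjusted p = 0.112), and *HSD11B2* was not called. Without high density replicate 2 the log2 fold change was 0.64 (limma's adjusted p = 0.0101) and the gene was called. Only 1 of the 3 normal density signals was above the background level, against 3 of 3 at high density, which limits how well the size of this difference is known.

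*H6PD* (12740933), which supplies NADPH to HSD11B1, had log2 signals of 6.57, 6.69 and 6.51 at normal density and 6.68, 6.45 and 6.63 at high density. The groups overlapped fully, with means of 6.59 ± 0.09 and 6.59 ± 0.12 (SD, n = 3). The log2 fold change was 0.00 ± 0.09 (SE), and its 95% interval of −0.21 to 0.21 lay within the 1.5-fold threshold.

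Since the activating and the inactivating enzyme act against each other, their changes were set against each other within each array. The log2 signal of *HSD11B1* less that of *HSD11B2* was 2.50, 2.72 and 2.81 in the normal density cultures and 3.18, 3.84 and 3.28 in the high density cultures. All 3 high density cultures lay above all 3 normal density cultures. The change in signal of *HSD11B1* was larger than that of *HSD11B2* by 0.76 on the log2 scale (exact permutation test, two-sided, p = 0.1, and 3 cultures against 3 cannot give a smaller one). Without high density replicate 2 the excess was 0.56. Since the normal density mean of *HSD11B2*, 4.60, was not above the background level of 4.62, its change may be understated, and the size of this excess is not well measured. Against *H6PD* the excess was 1.21, from 0.69 ± 0.10 at normal density to 1.90 ± 0.16 at high density (SD, n = 3, two-sided exact permutation test, p = 0.1). Both values say only that the changes were unequal, as the probes of the genes differ.

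**Figure D2:**
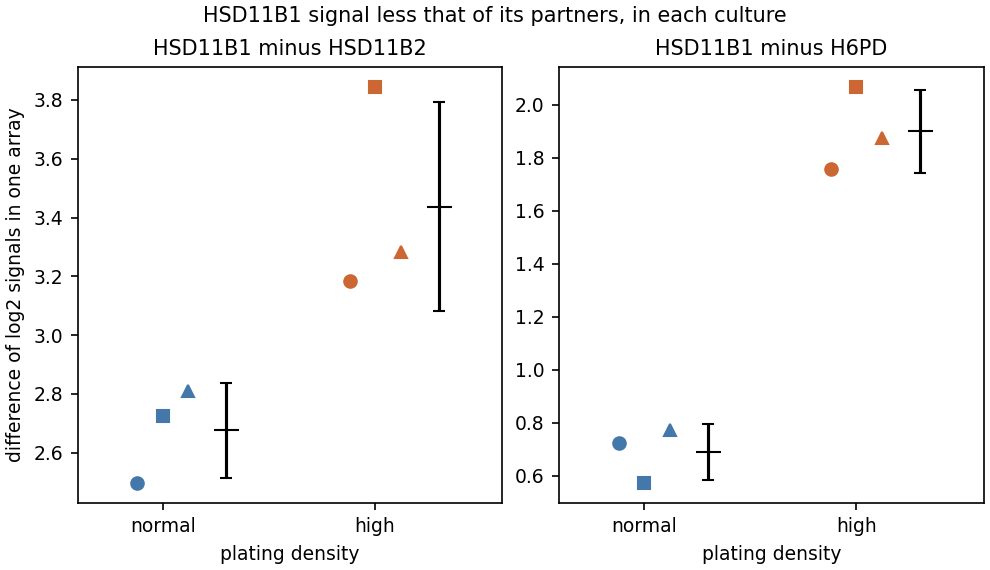
Log2 signal of *HSD11B1* less that of *HSD11B2* (left) and less that of *H6PD* (right) in each array, by plating density, with replicates 1, 2 and 3 as circle, square and triangle and black bars for means ± SD (n = 3). In both panels the high density cultures (orange) lie above the normal density cultures (blue), by 0.76 and 1.21 on average, the first against a normal density mean of *HSD11B2* that was not above the background level.

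Of the receptors, that for glucocorticoids fell. The log2 signal of the glucocorticoid receptor gene *NR3C1* (12883226) was 7.92, 7.86 and 7.88 at normal density and 7.08, 7.26 and 7.21 at high density. The highest high density culture was 0.60 below the lowest normal density culture. The means were 7.89 ± 0.03 and 7.18 ± 0.09 (SD, n = 3), a log2 fold change of −0.70 ± 0.07 (SE, adjusted p = 7.96e-04 by limma), which is a fold change of −1.63 with a 95% interval of −1.84 to −1.44. The interval thus reached below the 1.5-fold threshold, although the call held with each culture left out in turn (−0.74 to −0.65). Among all transcript clusters this fall ranked 670th in size.

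*NR3C2* (12743958), the gene of the mineralocorticoid receptor, had log2 signals of 2.94, 3.01 and 3.21 at normal density and 3.46, 3.68 and 3.64 at high density. These 6 signals were all below the background level, so no fold change is given as a measure of expression. The groups did not overlap, and the signals differed by 0.54 ± 0.10 on the log2 scale (SE, adjusted p = 0.00949 by limma), just under the fold threshold. Without normal density replicate 3 the difference was 0.62 and without high density replicate 1 it was 0.61, and *NR3C2* was then called.

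None of the 3 genes that the receptor is known to induce was called. *FKBP5* (12806256) encodes a co-chaperone that lowers the receptor's affinity for hormone, and its induction is one of the most widely used readouts of glucocorticoid action. Its log2 signal was 8.75, 8.67 and 8.64 at normal density and 8.62, 8.85 and 8.58 at high density, with overlapping groups. High density replicate 2 was the highest of the 6 cultures and high density replicate 3 the lowest. The log2 fold change was 0.00 ± 0.09 (SE, 95% interval −0.22 to 0.21).

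*TSC22D3* (12902223), also known as GILZ, encodes a leucine zipper protein that carries part of the anti-inflammatory effect of glucocorticoids. Its log2 signal was 7.63, 7.62 and 7.56 at normal density and 7.76, 7.74 and 7.84 at high density. The groups did not overlap, but the gap between them was 0.11. The log2 fold change was 0.18 (95% interval 0.02 to 0.34, limma's adjusted p = 0.112). The upper end of that interval, 1.26-fold, was below the fold threshold.

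*PER1* (12770593) is a clock gene with a known glucocorticoid response element. Its log2 signals were 5.31, 5.27 and 5.41 at normal density and 5.13, 4.98 and 5.12 at high density, without overlap. The log2 fold change was −0.25 (95% interval −0.43 to −0.07, limma's adjusted p = 0.0623). For *H6PD*, *FKBP5*, *TSC22D3* and *PER1*, 4 of the 8 genes, the whole 95% interval lay within the 1.5-fold threshold.

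**Figure D3:**
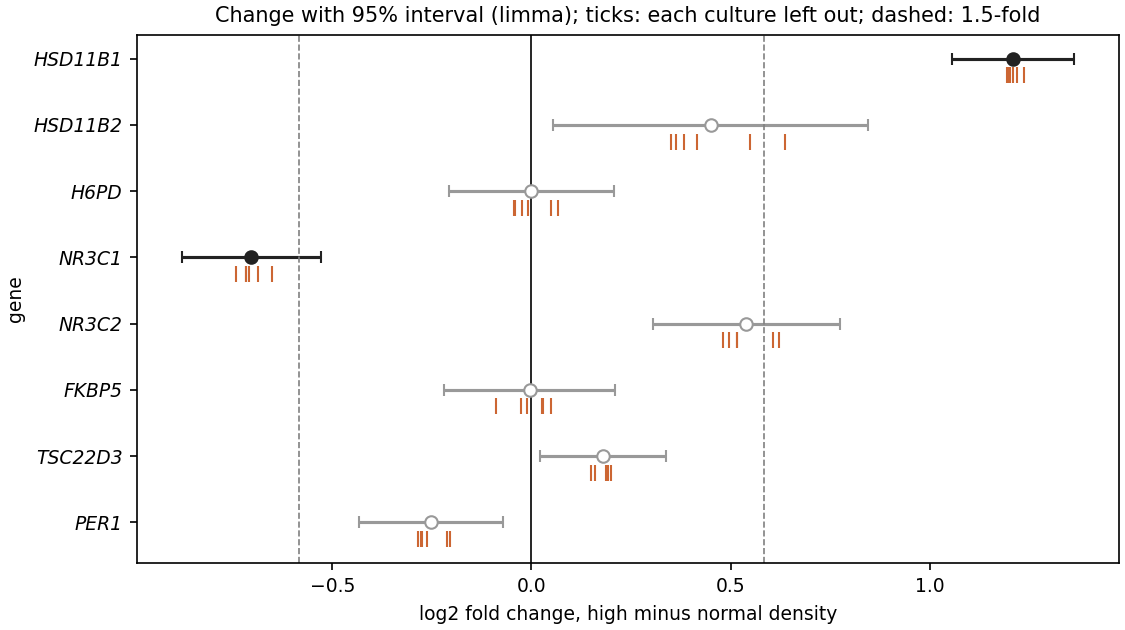
Log2 fold change, high minus normal density, of the 8 genes (points) with limma's 95% interval (bars), filled where called. Orange ticks are the values with each of the 6 cultures left out and dashed lines mark 1.5-fold. *HSD11B1* at 1.21 and *NR3C1* at −0.70 lie beyond the dashed lines, and the ticks of *HSD11B2* and *NR3C2* fall on both sides of the right one.

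At high density the cultures differed more from each other in some of these genes than in others. *HSD11B2* had a larger SD at high density than 93.7% of all transcript clusters, and *FKBP5* than 59.9%, while the shares were 11.9% for *HSD11B1* and 13.9% for *TSC22D3*. High density replicate 2 had the lowest high density signal of *HSD11B2*, *H6PD*, *TSC22D3* and *PER1*, and the highest of *HSD11B1*, *NR3C1*, *NR3C2* and *FKBP5*.

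**Figure D4:**
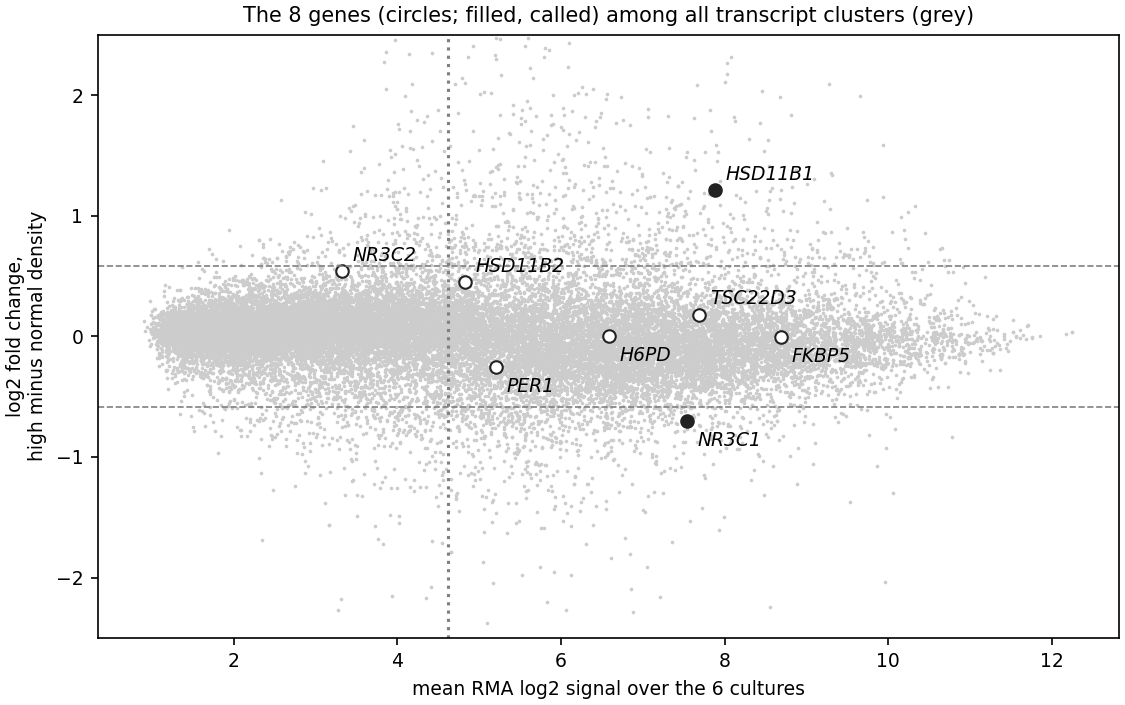
Log2 fold change, high minus normal density, against the mean RMA log2 signal over the 6 cultures for all 26773 transcript clusters (grey, of which 40 lie beyond the vertical axis of ±2.5) and the 8 genes (circles, filled where called). The dotted line is the background level and the dashed lines mark 1.5-fold. *NR3C2* lies left of the dotted line, and *HSD11B1* and *NR3C1* lie well to the right of it.

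The transcript clusters whose signals followed *HSD11B1* most closely over the 6 cultures were *CADM1*, *IL1RN*, *PANK3*, *MBNL3* and *BASP1*, with Pearson's r between 0.9992 and 0.9999. With 2 separate groups of cultures such values are frequent, and 248 of the 11165 named transcript clusters compared had an r above 0.99. *IL1RN*, the gene of the interleukin-1 receptor antagonist, changed from 5.19 ± 0.06 to 8.32 ± 0.06 (SD, n = 3), and *CADM1*, a cell adhesion molecule, from 8.54 ± 0.01 to 9.19 ± 0.03.

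Beyond the 8 genes, 8 lists of genes around the pathway were read, with 163 symbols in all, of which *CEBPD*, *PER2* and *TSC22D1* stand in more than 1 list. A list is described by its calls and its median log2 fold change. For all transcript clusters the median was 0.02, 7.49% were called and 19.1% passed the adjusted p at any fold. The lists were chosen with earlier results of these data known, so their shares of calls are descriptions only. No set test was run.

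Of the 34 other genes that glucocorticoids are known to induce, 10 rose and 1 fell, 32.4% of the list. Over all transcript clusters 7.49% were called, and 13.0% of those above the background level. These shares differ in unit, since a listed gene counts as called if any of its transcript clusters is. Above the background level were 26 of the 34 genes. The list's median was 0.18. The largest rise was that of *CDKN1C*, a cell cycle inhibitor, with group means of 4.87 ± 0.14 (normal) and 7.97 ± 0.25 (high, SD, n = 3 each) and a log2 fold change of 3.10 ± 0.14 (SE, adjusted p = 2.08e-05 by limma). *RGS2*, a brake on G protein signaling, followed with 1.83, from a mean below the background level, and *LPIN1*, a phosphatidate phosphatase, with 1.52. Further rises were those of *ANGPTL4* (1.46), *ERRFI1* (1.34), *MT1E* (1.32), *DDIT4* (1.06), *GADD45B* (0.79) and *MT2A* (0.74). Several of these have other well-known inducers, such as oxygen shortage for *ANGPTL4* and *DDIT4* and cAMP for *RGS2*. The metallothioneins *MT1E* and *MT2A* belong to a family of near-identical copies whose probes may share signal, and a second *MT1E* transcript cluster, below the background level, was not called.

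The fall was that of *ZBTB16*, a zinc finger gene that glucocorticoids and progestins induce strongly, with group means of 7.76 ± 0.13 (normal) and 7.17 ± 0.16 (high, SD, n = 3 each) and a log2 fold change of −0.59 (limma's adjusted p = 0.00809). Its call was lost without high density replicate 2 (−0.51), normal density replicate 1 (−0.55) or normal density replicate 2 (−0.56). Other genes of the list often used as readouts of the receptor were not called. *SGK1*, a kinase that regulates sodium transport, had a log2 fold change of −0.15, *DUSP1*, a phosphatase that limits MAP kinase signaling, of 0.30, *NFKBIA*, the inhibitor of NF-kappaB, of −0.06 and *KLF9*, below the background level in both groups, of −0.25. At any fold, 13 genes of the list passed the adjusted p with a higher signal and 5 with a lower one. Among those that missed the fold threshold were *TIPARP* (0.56), *TSC22D1* (0.43) and *DUSP1* with higher signals, and *GLUL* (−0.56) and *CEBPD* (−0.54) with lower ones.

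**Figure D5:**
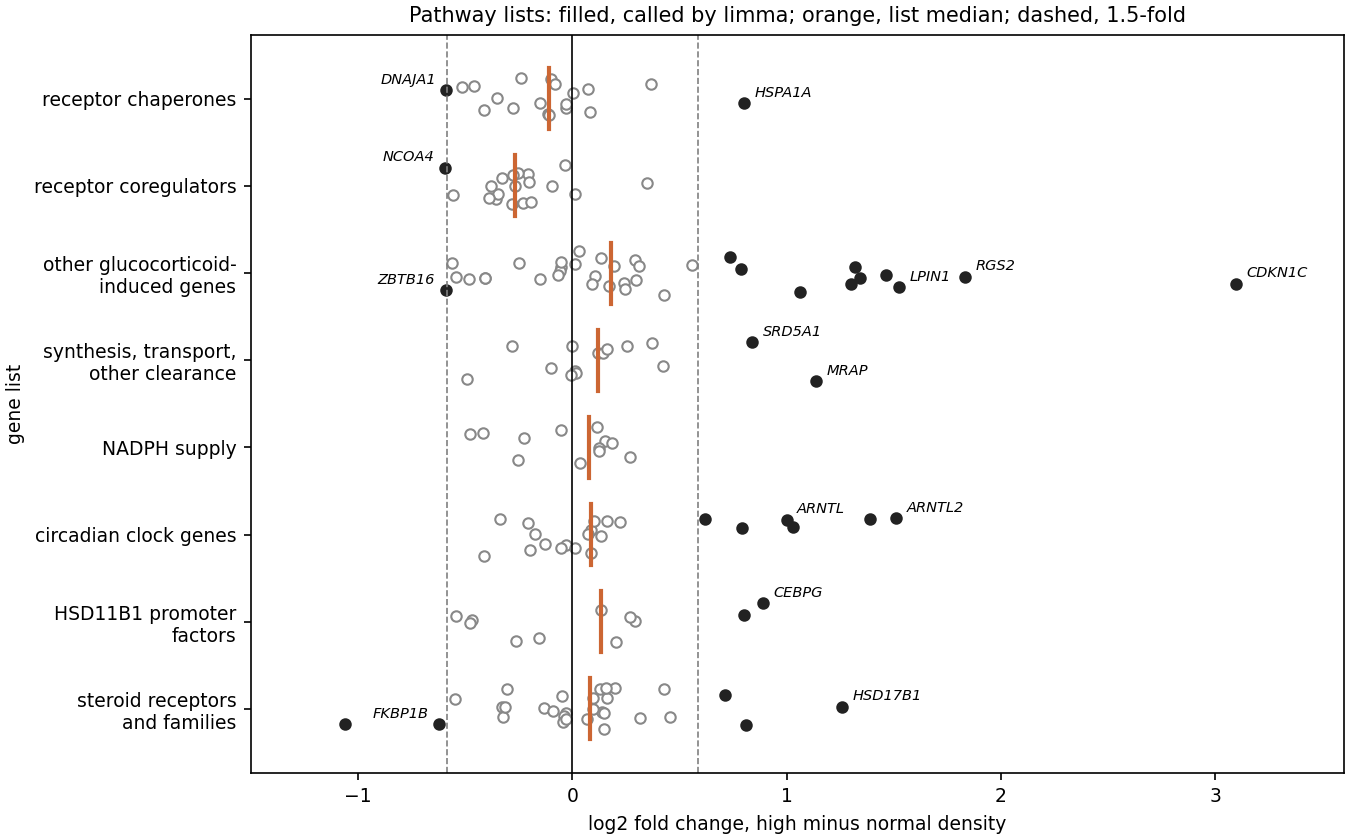
Log2 fold change, high minus normal density (horizontal axis), of each transcript cluster in the 8 gene lists, filled where called by limma, with the list median as an orange bar and dashed lines at 1.5-fold. The list of other glucocorticoid-induced genes reaches from −0.59 to 3.10, while no gene of the NADPH supply list lies beyond a dashed line.

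The receptor is held ready to bind hormone by HSP90 and its co-chaperones. Of 17 chaperone genes measured, *HSPA1A*, a stress-induced HSP70, rose by 0.80 on the log2 scale (limma's adjusted p = 0.0014). *DNAJA1*, an HSP40, was called lower in 1 of its 2 transcript clusters, with −0.59 (limma's adjusted p = 0.0294), against −0.24 in the other. That call was lost without any of 5 cultures, all but high density replicate 2, with values between −0.61 and −0.47. *HSP90AA1* (−0.10) and *FKBP4*, the counterpart of *FKBP5* that helps to carry the receptor to the nucleus (0.08), were not called. At any fold, 8 of the 17 genes passed the adjusted p, 2 higher and 6 lower at high density, and the median of the list was −0.11. Among the lower ones under the fold threshold were *PPID* (−0.52), *AHSA1* (−0.46) and *HSPA4* (−0.41), and *TRAP1* (0.37) was higher.

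The coregulators, which the bound receptor recruits to its target genes, differed mostly by less than the fold threshold. Of 19 genes measured, 1 was called and 12 passed the adjusted p at any fold, 11 lower and 1 higher at high density, and the median of the list was −0.27. *NCOA4*, which is also the receptor for ferritin breakdown, fell by 0.60 (limma's adjusted p = 0.00175), and lost its call without replicate 2 of normal density (−0.57) and without replicate 1 of high density (−0.54). The steroid receptor coactivators *NCOA1* (−0.56) and *NCOA2* (−0.35) passed the adjusted p, whereas *NCOA3* (0.01) did not.

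Of other steroid receptors, the estrogen receptor genes *ESR1* and *ESR2* had a log2 fold change of −0.31 each and the progesterone receptor gene *PGR* of 0.14, none of them called. A second *ESR1* transcript cluster was below the background level. In the list of receptors and of relatives of the 8 genes, 3 of 29 genes rose and 2 fell. The rises were those of *HSD17B1* (1.26, from a mean below the background level), which makes estradiol from estrone, *HSD17B7* (0.81), an enzyme of cholesterol synthesis, and *HSD17B12* (0.71), an enzyme of fatty acid elongation. Of the genes that fell, *FKBP1B*, a calcium channel partner, fell by 0.62, and was not called without normal density replicate 3 (−0.56). *TSC22D1*, a relative of *TSC22D3*, had a log2 fold change of 0.43 (limma's adjusted p = 0.00476), under the fold threshold.

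The list of steroid synthesis, transport and further clearance had 14 measured genes, 7 of them never above the background level. *SRD5A1*, a 5-alpha reductase of steroids, rose by 0.84 (limma's adjusted p = 7.23e-04), and *MRAP*, a partner of the ACTH receptor, by 1.14 (limma's adjusted p = 9.55e-04). The ACTH receptor gene *MC2R* and *CYP21*, whose enzyme is needed to make cortisol from progesterone, were below the background level in both groups. *ABCB1*, an exporter of steroids, changed by −0.01, and *HSD11B1L*, a relative of *HSD11B1*, by −0.10. At any fold, 7 of the 14 genes passed the adjusted p, 5 with a higher signal and 2 with a lower one. The lower ones were *STAR* (−0.49) and *HSD3B1* (−0.28), both under the fold threshold. Among the higher ones under it were *CYP11A1* (0.26) and, below the background level, *CYP21* (0.37) and *AKR1D1* (0.42).

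None of the 12 genes of NADPH supply was called. *SLC37A4*, which carries the glucose 6-phosphate that H6PD uses into the endoplasmic reticulum, had a log2 fold change of −0.42 (limma's adjusted p = 0.0103), and *PGD* of 0.27 (limma's adjusted p = 0.0241), both under the fold threshold.

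Of 20 clock genes measured, 6 rose and none fell, while *PER1*, *PER2* and *PER3* were not called. *PER3* was below the background level in both groups. *PER2* was below it in a first transcript cluster and close to it in another, with means of 4.67 (normal) and 4.69 (high), so the missing calls of *PER2* and *PER3* say little. Those that rose were *ARNTL2* (1.51, from a mean below the background level), *BHLHE41* (1.39), *BHLHE40* (1.03), *ARNTL* (1.001), *NFIL3* (0.79) and *RORA* (0.62). *RORA* was not called without high density replicate 2 (0.57) or with arrays shifted to the same median (0.58). *CLOCK*, the partner of *ARNTL*, had a log2 fold change of −0.41 (limma's adjusted p = 0.00465). *CRY2* (−0.03) and *CRY1* (0.13, below the background level) did not pass the adjusted p.

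Of the genes listed as possible regulators of *HSD11B1*, 2 of 11 measured rose, *CEBPG* by 0.89 (limma's adjusted p = 6.07e-04) and *ATF4* by 0.80 (limma's adjusted p = 5.51e-04). Whether either acts on *HSD11B1* in these cells was not tested. *CEBPB* was listed too, but no transcript cluster carried its symbol. At any fold, 2 passed the adjusted p with a higher signal and 3 with a lower one. The lower ones, all under the fold threshold, were *CEBPD*, given above, *PPARG* (−0.47, limma's adjusted p = 0.0165) and *PPARA* (−0.48, limma's adjusted p = 0.00903). *CEBPA* was below the background level in both groups. *IL1R1*, the receptor of interleukin-1, a cytokine known to induce *HSD11B1*, had a log2 fold change of 0.29 (limma's adjusted p = 0.0615), and *IL1B* was below the background level.

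Markers of cell types other than GC also differed between the groups. Of 6 stroma and surface epithelium markers, 4 were above the background level in both groups, with a mean signal of the list between 6.07 and 6.19 at normal density and between 6.43 and 6.55 at high density. *COL1A1* rose by 1.15, while *DCN* (0.17) and *PDGFRA* (0.32) were not called. Of 6 theca markers *ACTA2* and *INSL3* rose, *LHCGR* fell within signals below the background level and *CYP17A1* was also below the background level. *LHCGR* is not a marker of theca alone, as the paper follows it as a gene of GC and found it lower at high density by qPCR too. The mean of the 13 GC markers lay between 8.14 and 8.30 at normal density and between 7.45 and 7.52 at high density, and 6 of them fell, among them *FOXL2* and *CYP19A1*. The part of these differences in the changes of *HSD11B1* and *NR3C1* was not tested, and in RNA from whole cultures fewer cells of a type and less RNA per cell cannot be told apart. Of 8 endothelial markers, 3 were above the background level in each group and *CLDN5* rose, and of 6 red blood cell markers none was above it at normal density and only *HBA*, a hemoglobin gene, at high density, with 3.48 ± 0.08 and 9.37 ± 0.35 (SD, n = 3). Of 5 adrenal cortex markers 2 were measured, both below the background level.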

How the data were processed

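Total RNA of 6 cultures was hybridized to Bovine Gene 1.0 ST arrays, 1 per culture. The authors processed the scans with RMA in Expression Console, and the deposited table holds one log2 signal per transcript cluster and culture. Its genome build is not given in the sources used here, so no coordinates or sequences are printed, and a planned comparison of promoters and proteins was not run. The table holds 0 columns of other samples. No further normalization was applied.

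Groups came from the sample labels. A linear model without covariates (lmFit and eBayes of limma 3.58.1, R 4.3.3) was fitted to all 26773 transcript clusters, 82 control reporters included, with Benjamini-Hochberg adjustment. The code was tested on simulated data. Within-array differences were tested with a two-sided exact permutation of the cultures. The number of arrays limits the precision.

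The 8 genes, the lists and the markers were chosen with earlier results of these data known. A listed symbol counts as called if any of its transcript clusters is, and symbols were matched exactly. Every called gene of a list was named where 6 or fewer were called, and otherwise the 3 largest rises and falls. Single results of some listed genes are not reported here. Uncalled genes, the further rises of the glucocorticoid-induced list and single markers were named after their values were seen. Genes like *HSD11B1* are the 5 with the highest r among named transcript clusters above background. The test was repeated as the methods' t-test (in Transcriptome Analysis Console 3.0, an analysis of variance of 2 groups), eBayes with trend and robust variances, the replicate number as a block, arrays shifted to one median, a filter at the background level and leaving out each culture. Figures were drawn with matplotlib 3.10.9.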

Additional observations from a re-analysis of the deposited data

How the results depend on the processing

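The calls of *HSD11B1* and *NR3C1* held under all 11 alternatives, with log2 fold changes between 1.17 and 1.24 and between −0.75 and −0.65. The number of called genes among the 8 was 2 under every alternative that kept all cultures, where 6.02% (the methods' t-test) to 13.0% (the background filter) of all tested were called, and 2 to 3 with one culture left out. With each culture left out, *HSD11B2* ranged from 0.35 to 0.64, *NR3C2* from 0.48 to 0.62, *H6PD* from −0.045 to 0.066 and *FKBP5* from −0.0897 to 0.0493. *H6PD* turned positive without normal density replicate 2 (0.05) or high density replicate 2 (0.066), and *FKBP5* without normal density replicate 1 (0.03), high density replicate 1 (0.03) or high density replicate 3 (0.0493), and the 95% intervals of both include 0. *NR3C2* has no value under the background filter. With that filter limma's adjusted p was 0.0252 for *PER1* and 0.0475 for *TSC22D3*. With arrays shifted to one median it was 0.0267 for *PER1* and 0.23 for *TSC22D3*. Whether these genes passed the adjusted p thus depended on the setting, but neither was called under any alternative. The chaperone list had 1 called gene by the methods' t-test and 1 to 3 with a culture left out, against 2. The coregulator list had 2 with arrays shifted to one median, where *NCOA1* was called too, and 0 to 1 with a culture left out, against 1. Of the 29 called transcript clusters of the lists, 24 stayed called under all alternatives. *ZBTB16* and *DNAJA1* were not called by the methods' t-test, and the other losses stand in the text. With limma on the within-array differences, the excess of *HSD11B1* over *HSD11B2* (0.76, limited by the background level) had an adjusted p of 0.0239 and that over *H6PD* (1.21) of 2.76e-04. Limma moderated the variance of these differences with those of single genes, so both p-values may be too small. The exact permutation test gave p = 0.1 for each. The deviations of same-numbered cultures of the groups had correlations of −0.05 to 0.05, and those of differently numbered cultures −0.07 to 0.09. With 3 cultures per group this cannot tell whether same-numbered cultures shared cells, and the sources do not say. With the replicate number as a block, 2 of the 8 genes were called, and the adjusted p was 8.29e-04 for *HSD11B1* and 0.00569 for *NR3C1*. Signals near the background level limit *HSD11B2* and *NR3C2*.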
